A study of Mus musculus with 20 samples.

Results

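Inhibitory receptors and the ligand PD-L1 are described here in donor CD8+ effector T cells (Teff) taken from 4 sites of mice with acute graft-versus-host disease. The set holds 9 genes chosen by name, namely Pdcd1, Cd274, Lag3, Havcr2, Tigit, Ctla4, Cd160, Btla and Cd244a. They are 9 of the 20886 genes with a named probe on the array. Each has 1 probe, and 7 of the 9 were bright enough to be tested, as were 8057 genes in all. Cd160 and Cd244a were not tested and are given as levels only.

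Recipients were female C57Bl/6 m-act OVA mice, 8 to 16 weeks old, which carry the transgene Tg(CAG-OVA) and so express ovalbumin under a broadly active promoter. They received 11 Gy of total body irradiation in split doses, followed by bone marrow cells and splenocytes of OT-I donors, whose CD8+ T cells carry a transgenic receptor for an ovalbumin peptide. The grafted OT-I CD8+ T cells carried the CD45.1 allele, while recipients and the remaining graft cells carried CD45.2. On day 4 the CD45.1+ cells were recovered from blood, liver, lung and small intestine by magnetic positive selection, and their RNA went through linear amplification before 1-colour hybridisation. All 4 groups share the disease, the irradiation, the donor receptor and the selection, so the comparisons are between sites within sick mice. Each site has 5 arrays, numbered 1 to 5 in the labels. The labels do not tie arrays to animals, and p-values therefore measure the spread between these arrays, some of which may be technical.

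PD-1, the product of Pdcd1, is a T cell receptor that recruits phosphatases when it binds PD-L1, the product of Cd274, or PD-L2. CTLA-4, LAG-3, TIM-3 (Havcr2), TIGIT, BTLA and CD160 likewise dampen T cell activation on meeting their ligands, and 2B4 (Cd244a) can activate or inhibit according to the adaptor it finds. Several of them are also induced by antigen receptor signalling, so that effector cells carry them before any exhaustion. PD-L1 is made by many cell types and is induced by interferon gamma, and activated T cells can carry it themselves.

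Levels are log2 signals minus the 75th percentile of the array, so that a level of 0 lies at that percentile and a difference of 1 is a 2-fold change. A probe counts as detected on an array where the scanner software marked it well above background. The lowest detected signal lay between -2.01 and -0.05 on this scale, and 22.6% to 38.7% of probes were detected per array. A gene was called where limma's adjusted p, with Benjamini-Hochberg adjustment over all 8057 genes, was under 0.05. Levels of different genes come from different probes and are not ranked against each other.

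The arrays differed in what else they held. Of 15 CD8 T cell identity genes, 13 (Cd3e, Cd8a, Lck and others) were detected on all 20 arrays, while Trat1 was detected on none and Cd247 on none outside lung. The mean level of the 13 was 5.34 ± 0.16 (SD, n = 5) in blood. It was 5.55 ± 0.13 for the liver arrays, 5.13 ± 0.27 for the lung arrays and 4.80 ± 0.89 for the small intestine arrays. Within small intestine it was 4.78, 4.05, 5.87, 3.80 and 5.48 on arrays 1 to 5. The 7 Paneth cell markers averaged 4.24, 5.37, 0.95, 6.23 and -3.35 on those arrays, and 2.49 on liver 5 against -2.55 to -2.16 on the other liver arrays. The arrays labelled liver 5 and small intestine 5 thus go against their labels in these markers. Where leaving one of them out moved a printed difference of a member by over 1.5 times, the value without it is given beside it. The lung arrays held other markers. The 10 alveolar macrophage markers averaged -2.35 ± 0.71 on blood and 2.62 ± 2.86 on lung arrays, where they were at 2.86, 2.88, -2.16, 5.29 and 4.26 on arrays 1 to 5. All 10 were detected on each of lung 1, 2, 4 and 5, against 0 to 3 per blood array, and 6 were called higher in lung than in blood. The 9 lung epithelium markers averaged -1.28 ± 0.36 on blood and 0.65 ± 0.90 on lung arrays, and 3 of the 6 tested were called higher. The part of these cells in the lung differences of the members was not tested. In sorted bulk RNA, fewer cells of a type and less RNA per cell cannot be told apart.

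PD-L1 was the only member called in any of the 6 site comparisons. Cd274 was higher in small intestine than in blood, by 0.81 on the log2 scale, or 1.75-fold. Lag3, Havcr2, Tigit and Btla each had their highest mean in blood, and Ctla4 its highest mean in lung, but none of these differences passed the threshold. Pdcd1 differed least: its site means spanned 5.77 in blood to 6.17 in liver. The number of members called was 1 of 7 for small intestine against blood, where 10.9% of all tested genes were called, and 0 of 7 in every other comparison. Against blood, 0% of all genes were called in liver and 0.819% in lung. Against liver, the share was 0.285% for lung and 0% for small intestine. The latter gave 0.149% against lung, and limma's F-test over the 4 sites gave 0.757%. At an unadjusted p under 0.05, comparisons with blood gave 0 members in liver, 3 in lung and 2 for small intestine. The other counts at that p were 0 when lung, and 1 when small intestine, was set against liver, 0 when the latter was set against lung, and 2 in the F-test. Of all tested genes, 33.8% in lung and 32.8% in small intestine had such a p against blood, as did 22.1% for small intestine against liver and 27.8% in the F-test, so 3, 2, 1 and 2 of 7 are near the background there too. The share of 1 in 7 is close to the background share, so the count itself sets the members apart from other genes in no comparison.

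**Figure D1:**
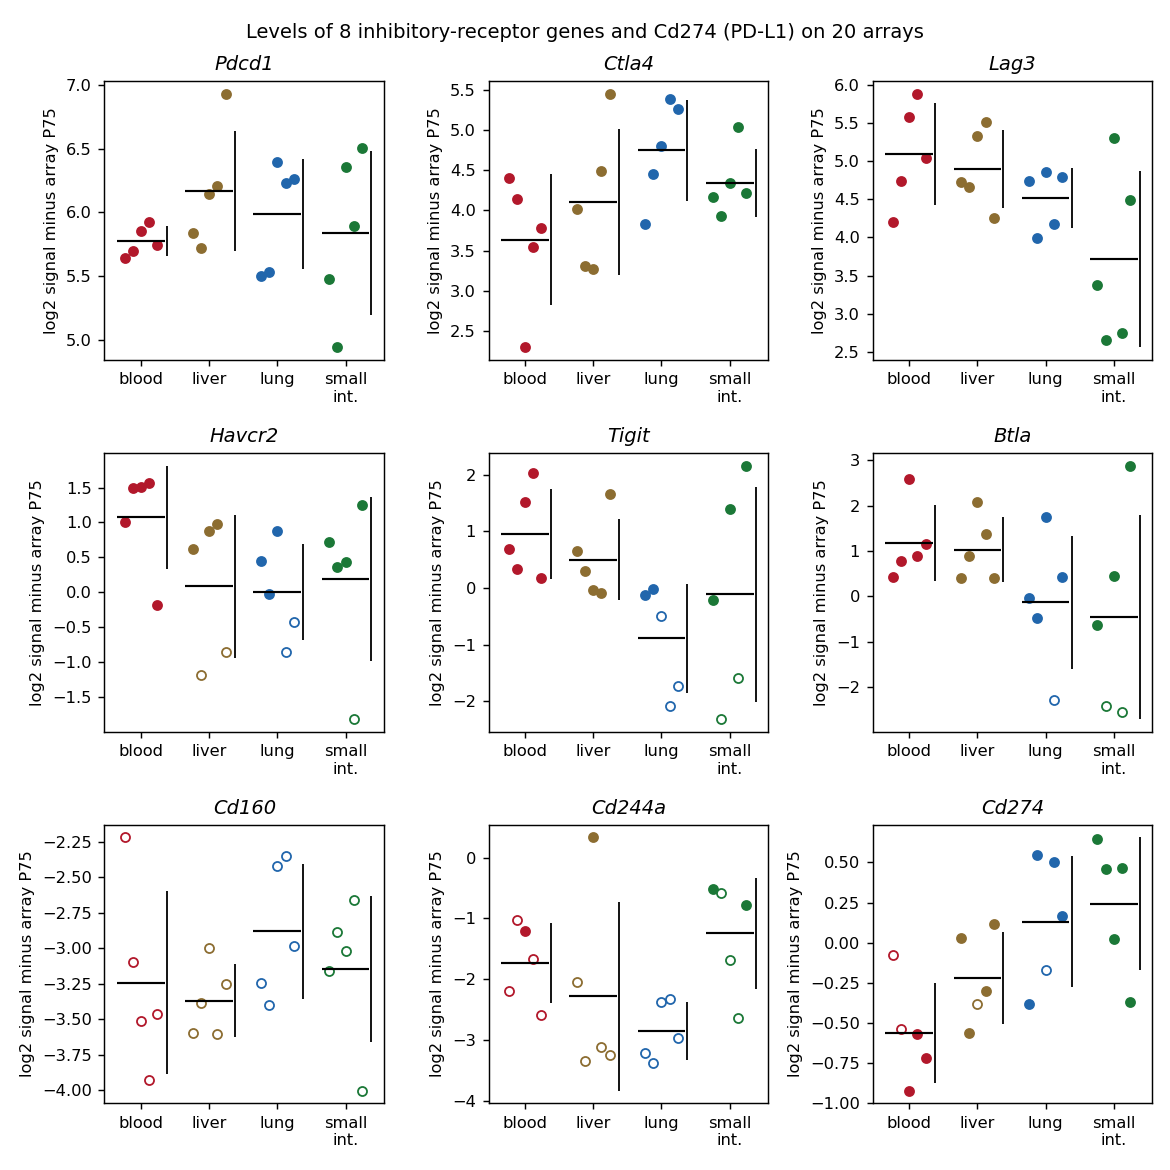
Each point is 1 array, with the log2 signal minus the array's 75th percentile (P75) on the y axis of each panel and the 4 sites along the x axis (5 arrays per site, in replicate order from left to right). Filled points were well above background and open points were not, horizontal lines are site means and vertical lines are 1 SD to either side. Cd274 was at or under -0.08 on all 5 blood arrays, and Lag3 was at 2.65 to 3.38 on small intestine 1, 2 and 4 but at 5.30 and 4.49 on arrays 3 and 5.

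Cd274 had low levels at every site. On blood arrays 1 to 5 its level was -0.08, -0.53, -0.92, -0.57 and -0.72. On the small intestine arrays it was 0.64, 0.46, 0.02, 0.46 and -0.37. Of these 5 arrays, 4 lay above every blood array, and small intestine 5 lay within the blood range, so the groups overlapped. The mean was -0.57 ± 0.31 (SD, n = 5) in blood and 0.24 ± 0.41 in small intestine. The difference of 0.81 had an SE of 0.25 and a 95% interval of 0.29 to 1.33, and limma's adjusted p was 0.0448. Each slide carried 1 array of every site with the same replicate number, which gives 5 differences within slides. These were 0.72, 1.00, 0.94, 1.03 and 0.35, higher in small intestine on all 5 slides, and with slide as a block the adjusted p was 0.0422.

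In lung the Cd274 level was -0.38, 0.55, -0.17, 0.50 and 0.17 on arrays 1 to 5, with a mean of 0.13 ± 0.41. In liver it was 0.03, -0.56, -0.38, -0.30 and 0.12, with a mean of -0.22 ± 0.29. The lung arrays overlapped both the blood and the small intestine arrays, and 3 of the 5 liver arrays lay within the range of blood. Lung exceeded blood by 0.70 (SE 0.25, 95% interval 0.17 to 1.22) and on 4 of 5 slides, with limma's adjusted p at 0.124, and without lung 1 the difference passed at an adjusted p of 0.0494. Liver exceeded blood by 0.34 (95% interval -0.18 to 0.87). The order of means was small intestine, lung, liver and blood, and no neighbours in that order differed beyond their spread: the adjusted p values were 0.926, 0.396 and 0.997.

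The call for Cd274 lay near the threshold and near the detection limit. Its probe was not well above background on blood 1 and 2, liver 3 and lung 3. Of the 20 fits that left out 1 array, 12 ended the call, with adjusted p up to 0.118. These were the fits without liver 1, 2, 3 or 4, lung 5, blood 2, 3, 4 or 5, or small intestine 1, 2 or 4, while the difference stayed between 0.71 and 0.96 in all 20. The difference was 0.36 (adjusted p 0.0984) with normexp background correction, and 1.36 (adjusted p 0.149) when arrays were scaled on the CD8 T cell identity genes instead of the 75th percentile. With the latter scaling the median of all genes was 0.19, against -0.36 in the reported setting. Quantile normalization (adjusted p 0.0520), scaling on probes detected on all arrays (0.0613) and a test of all genes without a filter on dim probes (0.123) also ended the call. Without liver 5 and small intestine 5 it was 0.96, with an adjusted p of 0.0109.

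Markers of other cells moved with Cd274. The 12 dendritic cell markers averaged -0.69 ± 0.36 on blood and -0.49 ± 0.87 on liver arrays, against 0.78 ± 0.64 on lung and 0.78 ± 1.34 on small intestine arrays. On small intestine arrays 1 to 5 their mean was 1.94, 2.08, -0.27, 1.11 and -0.95, so the 3 arrays with the highest Cd274 were also the 3 highest in these markers. Of the 12, the class II gene H2-Aa was detected on no blood, liver or lung array, and Clec9a and Cd209a were detected on no array. Flt3 and Zbtb46 were detected on no liver or lung array and Batf3 on no lung array. In lung, 6 of the 12 were thus detected on no array. The 11 monocyte and macrophage markers averaged -1.92 ± 0.47 in blood and -0.29 ± 2.16 in small intestine, where they reached 1.85 and 2.25 on arrays 1 and 2 but stayed at -1.39 on array 4. Of these markers, 9 were detected on no blood array and 2 on no small intestine array. The 11 endothelial markers averaged -0.99 ± 0.43 on blood, 0.17 ± 0.67 on lung and -0.56 ± 0.69 on small intestine arrays. Of the 11, Pecam1, Tek and Emcn were detected on no array, and Cdh5 on none outside lung. Pearson's r of Cd274 was taken over the 20 arrays, which share RNA makeup and scaling. It was 0.81 with the dendritic cell mean, 0.76 with endothelium, 0.72 with Paneth cells and 0.69 with plasma cells. It was 0.68 with small intestinal epithelium, 0.66 with monocytes and macrophages, 0.59 with B cells and 0.55 with alveolar macrophages. With the mean of the 13 CD8 identity genes it was -0.61. After site means were removed these values were, in order, 0.69, 0.81, 0.66, 0.61, 0.56, 0.50, 0.55, 0.52 and -0.54. Of the 9 B cell markers, 8 were detected on no blood array and 7 on no small intestine array, so that r rests mostly on undetected probes. The part of these cells in the Cd274 difference was not tested.

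**Figure D2:**
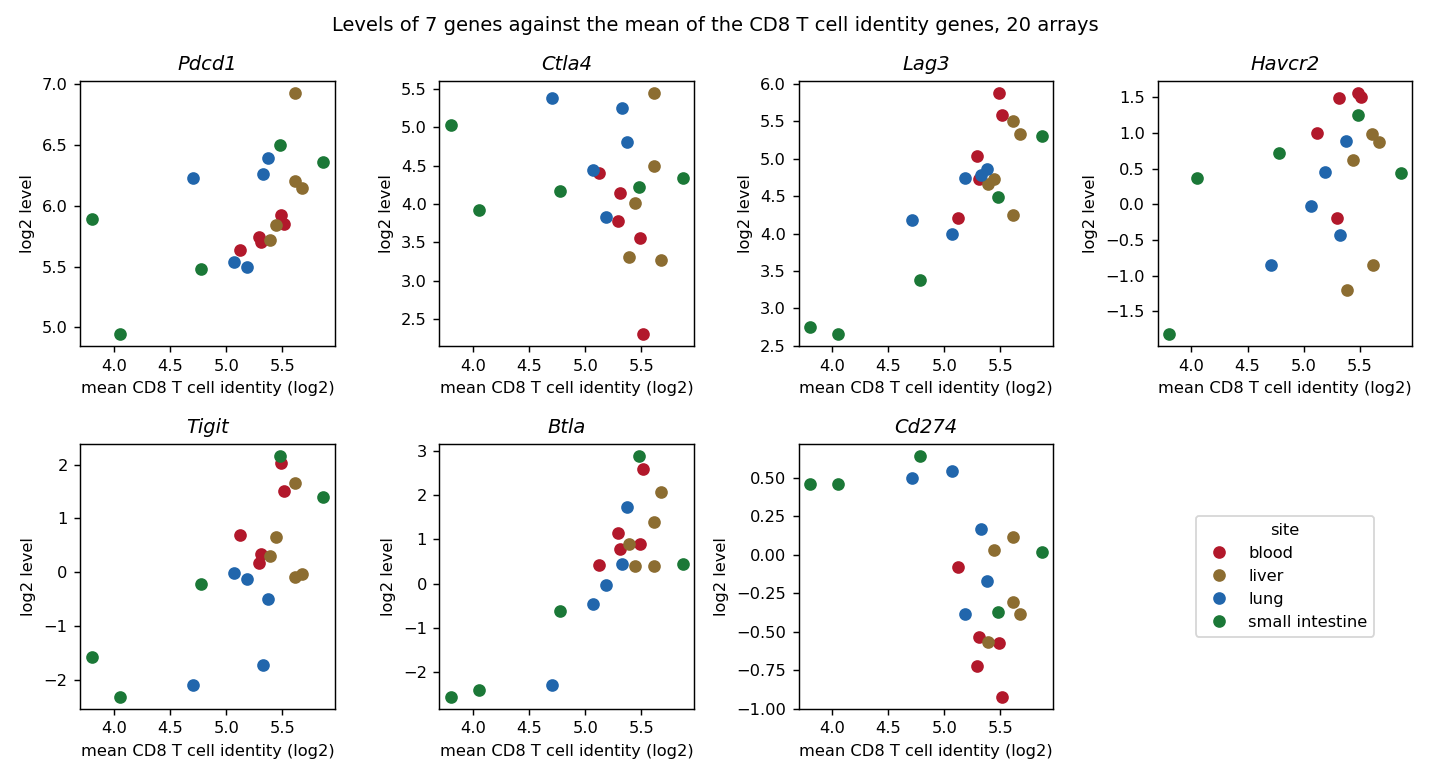
Each panel plots a gene's log2 level (y axis) against the mean log2 level of the 13 CD8 T cell identity genes (x axis), with 1 point per array and colours for the 4 sites. Lag3 and Btla were lowest on small intestine 2 and 4, which had the lowest identity means. Tigit was lowest on small intestine 2 (-2.31), then on lung 4 (-2.09) and on lung 5 (-1.73), whose identity mean was 5.32. Cd274 was 0.46 to 0.64 on small intestine 1, 2 and 4, whose identity means were 4.78, 4.05 and 3.80.

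Of the receptors, Pdcd1 was detected on all 20 arrays. Its level on blood arrays 1 to 5 was 5.64, 5.70, 5.85, 5.93 and 5.74. It was 5.84, 5.72, 6.14, 6.21 and 6.93 in liver, and 5.50, 5.54, 6.39, 6.23 and 6.26 in lung. On the small intestine arrays it was 5.48, 4.94, 6.36, 5.89 and 6.50. The blood arrays lay close together, with an SD of 0.12, against 0.47, 0.43 and 0.64 for liver, lung and small intestine arrays, and every other site overlapped them. Liver exceeded blood by 0.39 (SE 0.30, 95% interval -0.22 to 1.01) and on all 5 slides, with limma's adjusted p at 0.997, and without liver 5 the difference was 0.20. The difference was 0.21 for lung (95% interval -0.41 to 0.83) and 0.06 for small intestine (95% interval -0.56 to 0.68), or -0.10 without small intestine 5. These intervals leave room for changes of up to 1 on the log2 scale in liver, so equal levels are not shown. Scaled on the CD8 T cell identity genes, Pdcd1 was 0.61 higher in small intestine than in blood, with an adjusted p of 0.188. This scaling shifts all genes of an array by the same amount. The median of all genes was 0.19 there, against -0.36 in the reported setting.

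Ctla4, which competes with CD28 for the ligands CD80 and CD86, was also detected on all 20 arrays. Its level was 4.41, 4.14, 2.30, 3.55 and 3.78 on blood arrays 1 to 5, and 3.84, 4.45, 4.80, 5.38 and 5.25 on the lung arrays. Of the 5 lung arrays, 4 lay above every blood array, while lung 1 lay among them. Lung exceeded blood by 1.11 (SE 0.43, 95% interval 0.21 to 2.01), a 2.16-fold difference, on 4 of 5 slides, and limma's adjusted p was 0.124. The means were 4.11 ± 0.91 in liver and 4.34 ± 0.42 in small intestine, or 0.47 and 0.70 above blood, and without liver 5 the former was 0.13. Liver spanned 3.27 on array 3 to 5.45 on array 5, and small intestine 3.92 to 5.04. The order was lung, small intestine, liver and blood, with no neighbours past the threshold. Over the 20 arrays Ctla4 had an r of -0.70 with the log2 signal at the 75th percentile, the measure of array brightness that is subtracted in the scaling. The part of array brightness in the Ctla4 differences was not tested.

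Lag3, whose product binds MHC class II, was detected on all 20 arrays and was lowest in small intestine. Its level on blood arrays 1 to 5 was 4.20, 4.74, 5.58, 5.88 and 5.04. On the small intestine arrays it was 3.38, 2.65, 5.30, 2.74 and 4.49. Small intestine 1, 2 and 4 lay under every blood array, while arrays 3 and 5 lay among them. The difference was -1.38 (SE 0.44, 95% interval -2.30 to -0.45), lower on all 5 slides, and limma's adjusted p of 0.0506 missed the threshold. Within slides 1 to 5 it was -0.82, -2.08, -0.28, -3.14 and -0.56, and with slide as a block it passed, at an adjusted p of 0.0341. It also passed without liver 5 and small intestine 5, at -1.57 with an adjusted p of 0.0207. A test of only genes detected on all arrays passed it too, at an adjusted p of 0.0347. It passed in 5 of the 20 fits that left out 1 array, those without liver 5, lung 4, blood 1, small intestine 3 or small intestine 5.

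Lag3 in liver was 4.73, 4.66, 5.33, 5.51 and 4.25, within the blood range throughout. In lung it was 4.74, 4.00, 4.86, 4.18 and 4.79. Lung 2 and 4 lay under every blood array, and the mean was 0.58 under blood (95% interval -1.50 to 0.35). Small intestine was 1.18 under liver (95% interval -2.11 to -0.26, adjusted p 0.169). Lag3 followed the CD8 identity genes across arrays, with an r of 0.88 with their mean over 20 arrays and 0.86 after site means were removed. Scaled on those genes, the small intestine difference from blood was -0.83, with an adjusted p of 0.161. The median of all genes was 0.19 in that scaling, against -0.36 in the reported setting. The part of T cell content in the Lag3 difference was not tested.

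**Figure D3:**
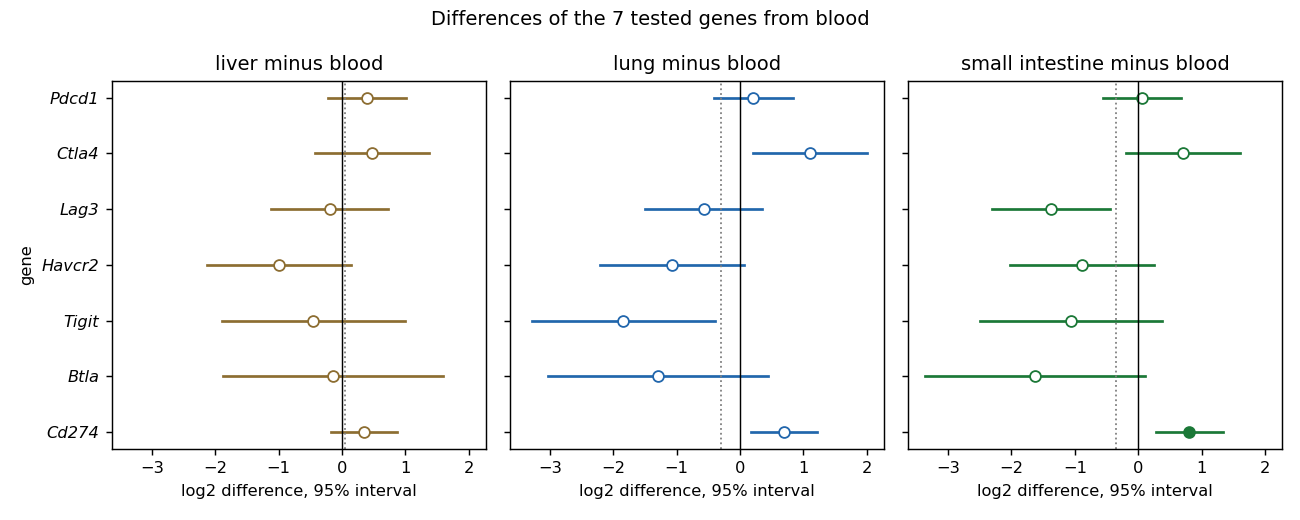
Points give the log2 difference of each organ from blood for the 7 tested genes, with 95% intervals from limma's fit over 20 arrays. The filled point (Cd274 in small intestine, 0.81) passed the threshold, open points did not, the solid line is 0 and the dotted line is the median over all 8057 genes (0.05, -0.30 and -0.36 for liver, lung and small intestine). Cd274 and Ctla4 lay to the right of both lines in each panel, and Lag3, Havcr2, Tigit and Btla to the left of both.

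Tigit, a receptor for CD155 (Pvr) and nectins, did not overlap between lung and blood arrays. How many of all tested genes were without overlap there was not counted, so this does not set Tigit apart. On blood arrays 1 to 5 its level was 0.70, 0.34, 1.51, 2.03 and 0.17. On the lung arrays it was -0.12, -0.02, -0.49, -2.09 and -1.73. All 5 lung arrays lay under every blood array, and lung 3, 4 and 5 were not well above background, so the size of the difference is not exact. As measured it was -1.84 (SE 0.69, 95% interval -3.28 to -0.40), with limma's adjusted p at 0.124. In that comparison 0.819% of all genes were called, and 33.8% had an unadjusted p under 0.05 in limma's fit. In small intestine Tigit ranged from -2.31 on array 2 to 2.17 on array 5, wider than the whole range of blood, and its difference from blood was -1.06 (95% interval -2.50 to 0.38), or -1.63 (adjusted p 0.0643) without small intestine 5. The lowest Tigit levels in lung, on arrays 4 and 5, were on the arrays highest in alveolar macrophage markers. Over the 20 arrays Tigit had an r of -0.61 with their mean, and -0.42 after site means were removed. Its r was -0.70 with the dendritic cell mean, -0.69 with that of monocytes and macrophages and -0.68 with that of endothelium, so alveolar macrophages do not stand out. The part of these cells in the Tigit differences was not tested. Liver lay between, with a mean of 0.50 ± 0.72 and its highest level, 1.66, on array 5.

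Btla, the receptor for HVEM (Tnfrsf14), gave the widest spread. Its level on small intestine arrays 1 to 5 was -0.63, -2.41, 0.45, -2.56 and 2.89, against 0.43, 0.79, 2.60, 0.90 and 1.15 in blood. Small intestine 5 was the highest of all 20 arrays, and arrays 2 and 4 the lowest. The probe was not well above background on small intestine 2 and 4 or on lung 4. The sizes of the small intestine and lung differences are therefore not exact. The difference of -1.62 (SE 0.83, 95% interval -3.36 to 0.11) had an adjusted p of 0.177 in limma's fit. Without small intestine 5 it was -2.46 with an adjusted p of 0.0194, so this array alone decided the call. In lung the mean was -0.12 ± 1.47, lower than blood on all 5 slides by 1.30 on average (95% interval -3.03 to 0.44), with -2.29 on lung 4. Liver, at 1.04 ± 0.71, overlapped blood.

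Havcr2, which encodes the receptor TIM-3, was 1.00, 1.49, 1.51, 1.56 and -0.18 on blood arrays 1 to 5. It was 0.62, -1.19, 0.87, 0.98 and -0.86 in liver, and 0.45, -0.02, 0.88, -0.85 and -0.43 in lung. The small intestine arrays had 0.72, 0.36, 0.44, -1.82 and 1.25. Blood 1 to 4 lay above every liver and lung array, and blood 5 lay within their range. Lung was 1.07 under blood (95% interval -2.21 to 0.07) and liver 0.99 under it (95% interval -2.13 to 0.15), each lower on all 5 slides, with adjusted p at 0.164 and 0.997 in limma's fit. Small intestine was 0.89 under blood, lower on 4 of 5 slides. The probe was not detected on 2 liver arrays, 2 lung arrays and 1 small intestine array.

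The remaining pair lay at or under the detection limit. Cd160, which shares the ligand HVEM with BTLA, was detected on 0 of 20 arrays, with signals between -4.00 and -2.22, so no site can be ranked. Cd244a was detected on 1 blood, 1 liver, 0 lung and 2 small intestine arrays. Its highest level was 0.34, on liver 3, while the other 4 liver arrays lay between -3.35 and -2.04. Its lung arrays, none of them detected, allow no fold against another site, because the mean detection limit there lies above the means of the other sites.

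The members fell into groups that varied together across arrays. Pearson's r over 20 arrays was 0.77 for Lag3 with Btla, 0.70 for Tigit with Btla and 0.57 for Lag3 with Tigit. Cd274 ran against this group, with an r of -0.78 with Btla and -0.76 with Lag3, and with Ctla4 it had an r of 0.66. After site means were removed these values were 0.72, 0.67, 0.59, -0.74, -0.67 and 0.56, each pooled over all 20 arrays. No r was taken within a single site. Small intestine had the widest spread in Btla (SD 2.25), Tigit (SD 1.90) and Lag3 (SD 1.15), so its arrays weigh heavily in these values. The arrays share scaling and T cell content. Btla and Tigit had an r of 0.83 and 0.71 with the mean of the 13 CD8 identity genes, Pdcd1 0.54, Havcr2 0.46 and Ctla4 -0.26.

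Among all tested genes, the 3 whose levels followed Cd274 most closely over the 20 arrays were Gbp2b, an interferon-inducible GTPase, with an r of 0.88, Slc15a3, a lysosomal transporter, with 0.86, and Xylt2, a xylosyltransferase, with 0.85. The mean of the 21 tested genes of the interferon gamma list had an r of only 0.26 with Cd274. Lag3 was followed by Trpc4ap (0.97), the deadenylase gene Cnot6l (0.96) and the mitochondrial ribosome gene Mrpl4 (0.96). Ctla4 was followed by Rbl1, Kif9 and Bcl2, each at 0.99. For Pdcd1 the nearest was Eif3k (0.88), for Tigit Cd300lg (0.92), for Btla Mtmr1 (0.94) and for Havcr2 Prr5 (0.82).

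Other genes of the same pathways are given by list. Of 7 tested ligands of the inhibitory receptors, 0 were called in any comparison in the reported setting. Their median was 0.34 for small intestine against blood, where the median of all genes was -0.36. Pdcd1lg2, which encodes PD-L2, was at 1.53 ± 1.00 in small intestine, 1.51 ± 0.82 in liver, 0.63 ± 0.81 in blood and -0.89 ± 1.56 in lung. Lung was lower than liver by 2.40 with no overlap (adjusted p 0.133) and lower than small intestine by 2.42 (adjusted p 0.123). How many of all tested genes were without overlap was not counted. The lung mean lay among the lowest detected signals of the lung arrays, -1.09 to -0.05, so these sizes may not be exact. Nectin2, a TIGIT ligand, was 1.46 higher in small intestine than in blood (adjusted p 0.0989), and Cd48, the ligand of 2B4, was 1.15 lower (adjusted p 0.0986). Nectin2 was called with the slide block, and Cd48 without liver 5 and small intestine 5. Cmtm6, whose product keeps PD-L1 protein from degradation, was 0.83 lower in lung than in blood (adjusted p 0.124), and the related Cmtm4 was 1.11 higher (adjusted p 0.125).

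Of 14 tested genes of proximal inhibitory signalling, 5 fell in small intestine against blood and none rose, with a median of -0.84. In that comparison 801 of all 8057 tested genes were called lower and 74 higher, with a median of -0.36. Ptpn6, which encodes the phosphatase SHP-1, fell by 1.54 (SE 0.29) from 5.03 ± 0.24 in blood to 3.49 ± 0.60, with no overlap between the groups and limma's adjusted p at 0.0154. Sh2d1a, the adaptor SAP of 2B4 and other SLAM receptors, fell by 1.48 (adjusted p 0.0453), Csk, the kinase that restrains Lck, by 1.39 (adjusted p 0.0432), and Dgkz, which removes diacylglycerol, by 1.00 (adjusted p 0.0246). The fifth, Ubash3b, named after its value was seen, fell by 0.98 (adjusted p 0.0378). Csk was detected on 3 of 5 small intestine arrays. Ptpn11, the SHP-2 phosphatase gene, was 0.91 lower in lung than in blood, without overlap, at an adjusted p of 0.118. For neither Ptpn6 nor Ptpn11 was the share of all tested genes without overlap counted. When arrays were scaled on the CD8 identity genes 0 of 14 were called, and the median was -0.30. In that setting the median of all 8057 genes was 0.19, in place of -0.36, and 19 of them were called. The list thus still lay under the median of all genes. The count was 0 without small intestine 2, 2 (Ptpn6 and Dgkz) with normexp or without blood 2, 1 (Ptpn6) when scaled on probes detected on all arrays, with no filter, or without blood 3, 4 or 5 or small intestine 1 or 4. It was 3 (Ptpn6, Ubash3b and Dgkz) with quantile normalization, with the deposited table, and without liver 1, 2 or 3 or lung 2, and 7 without small intestine 5. It was 8 without liver 5 and small intestine 5 or without small intestine 3.

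Of 14 tested transcription factors of activation and exhaustion, 2 fell in small intestine against blood, near the background share of 801 of 8057 genes. These were Nfatc2, by 2.58 (adjusted p 0.0247), and Irf4, by 2.31 (adjusted p 0.0367). They were detected on 1 and 2 of 5 small intestine arrays, so that neither size is exact. Both act downstream of the antigen receptor. Neither was called when arrays were scaled on the CD8 identity genes or on probes detected on all arrays, with normexp, or without blood 2, 3 or 5 or small intestine 2 or 4, and Nfatc2 alone was called with no filter on dim probes or without blood 1 or small intestine 1. Tox was called lower as well with the slide block, without small intestine 5, and without liver 5 and small intestine 5. Without small intestine 3, Tox and Batf were called lower and Nr4a1 higher. Nr4a1 was also called higher in settings such as the slide block, a test of only genes detected on all arrays, and without liver 3 or liver 5. Nr4a1, an early gene of antigen receptor signalling, was 1.59 higher in liver (adjusted p 0.997) and 1.54 higher in lung (adjusted p 0.108) than in blood. Of 21 tested genes of the interferon gamma list, which can induce PD-L1, 1 rose in small intestine against blood. In that comparison 74 of all 8057 genes were called higher. The called gene was Cxcl10, a chemokine gene, which rose by 4.11 (SE 0.79, adjusted p 0.0157) from -1.66 ± 1.23 to 2.44 ± 1.32 without overlap. Genes without overlap were not counted over the whole set. Liver and lung also exceeded blood in Cxcl10, by 3.25 (adjusted p 0.619) and 2.48 (adjusted p 0.116), each on all 5 slides. It was detected on only 1 of 5 blood arrays, so the sizes of these differences are not exact. Without small intestine 2 the small intestine rise of Cxcl10 was not called. Without small intestine 3, or without small intestine 5, 3 genes of the list were called, 2 higher and 1 lower. The list median was 0.03, against -0.36 for all genes. Of 9 tested activating counterparts such as Cd28, and of 11 other inhibitory receptors such as Klrd1, 0 were called in any comparison in the reported setting. This depended on the setting for small intestine against blood. Cd27, an activating counterpart, was called lower with the slide block. Without liver 5 and small intestine 5, where 2118 of all genes were called, Cd27, Klrd1 and Cd5 were called lower. Tnfrsf4 (OX40) was 2.24 higher in small intestine than in lung, at an adjusted p of 0.0995. Apart from the 8 calls given for small intestine against blood, 0 genes of these lists and of the PD-L1 stability pair were called in any comparison in the reported setting.

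The CD8 identity genes had a median difference of -0.55 in small intestine against blood, with 0 of 13 called, where the median of all genes was -0.36. Their part in the differences of the signalling genes was not tested. In that comparison 74 of all genes were called higher and 801 lower. Scaled on the CD8 identity genes, 12 were called higher and 7 lower. Scaled on probes detected on all arrays, 47 were called higher and 192 lower. The direction of the members was less mobile: for small intestine against blood, Cd274 and Ctla4 stayed above 0 and Lag3, Havcr2, Tigit and Btla stayed under 0 in every setting run, while Pdcd1 changed sign.

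**Figure D4:**
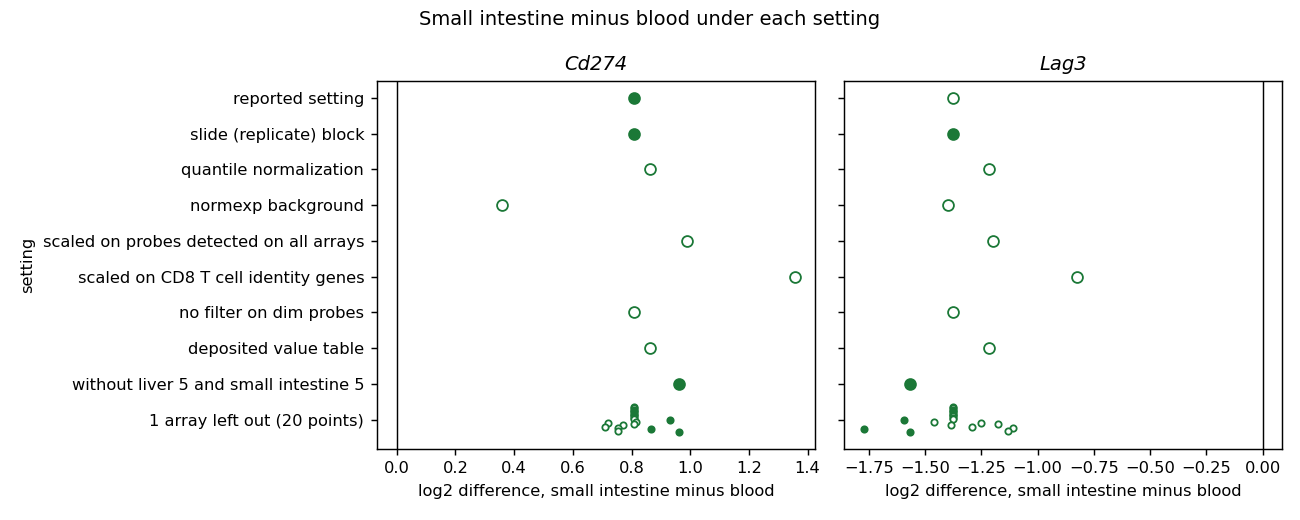
The x axis gives the log2 difference of small intestine from blood for Cd274 (left) and Lag3 (right), and each line of the y axis is a way of processing the same arrays, with the 20 fits that leave out 1 array on the last line. Filled points had an adjusted p under 0.05. Cd274 ranged from 0.36 to 1.36 and Lag3 from -1.77 to -0.83, with filled points for both under the slide block and without liver 5 and small intestine 5.

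Start-site sequences were read for the members from RefSeq's table of assembly GRCm38.p6, which holds 8 of the 9. Short motifs of T cell and interferon signalling were searched on both strands of the 300-base windows, from 250 bases before to 50 after the start: the GAS letters TTCNNNGAA, the interferon element (GAAA, any 2 bases, GAAA), the NFAT core GGAAAA, the AP-1 letters TGANTCA and the NF-kB letters GGGANNTCC. Of 32851 windows in the table, 8.3%, 3.44%, 23.4%, 7.81% and 4.3% hold them. The windows of Cd274, Pdcd1 and Btla hold none of these letters. Tigit and Ctla4, which lay on opposite sides of blood in lung, each hold 1 NFAT core on the minus strand of the window, at -14 to -9 and at -145 to -140 from the start. Havcr2 and Cd244a each hold 1 AP-1 match, and Cd160 1 GAS match. A match is only a run of letters, and these arrays did not measure binding. The 250 bases before the start are shown for the called member and for the pair with the NFAT core, whose letters are in capitals, at chr19:29367188-29367437 (plus strand) for Cd274, chr16:43664185-43664434 (minus strand) for Tigit and chr1:60908775-60909024 (plus strand) for Ctla4.
Cd274: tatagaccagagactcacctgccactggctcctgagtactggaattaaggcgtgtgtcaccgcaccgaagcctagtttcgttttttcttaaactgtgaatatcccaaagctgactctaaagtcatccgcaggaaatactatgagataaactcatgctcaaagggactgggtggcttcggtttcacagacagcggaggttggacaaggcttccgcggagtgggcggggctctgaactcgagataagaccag
Tigit: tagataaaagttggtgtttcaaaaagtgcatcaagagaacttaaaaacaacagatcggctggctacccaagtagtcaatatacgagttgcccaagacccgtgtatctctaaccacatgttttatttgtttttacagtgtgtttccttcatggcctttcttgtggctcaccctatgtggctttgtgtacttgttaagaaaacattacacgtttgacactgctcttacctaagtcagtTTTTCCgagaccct
Ctla4: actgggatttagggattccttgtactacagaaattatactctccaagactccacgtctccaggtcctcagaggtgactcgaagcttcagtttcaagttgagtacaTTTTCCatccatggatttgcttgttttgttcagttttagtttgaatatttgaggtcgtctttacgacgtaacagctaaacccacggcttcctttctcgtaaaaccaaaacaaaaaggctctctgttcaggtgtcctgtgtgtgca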

How the data were processed

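Expression was measured on 20 1-colour Agilent mouse arrays. Per the file headers, Feature Extraction 11.0.1.1 read the scans; version 10.7 and Partek are named in the submitters' processing notes. Its processed signal, as the deposited files give it, is a linear intensity with background subtracted. The authors also deposited log2 values, which have a median of 8.05 in each column and differ from quantile-normalized processed signal by a median of 0.000108. These values served as an alternative.

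From the intensity, log2 signal minus the array's 75th percentile was taken. Of 44397 spots, 1377 controls were left out, as were 24 non-uniform spots. In all 1 spot was saturated. Of 39429 probes 27508 had 1 symbol through unversioned RefSeq accessions in a gene table of assembly GRCm38.p6. The brightest probe stood for a gene. Tests took in genes that the scanner flagged well above background on 4 or more of the 5 arrays of any site, so a gene that passed through 1 site tends to be bright there. Probe coordinates, which the array design holds on another build, are left out.

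Differences came from limma 3.58.1 in R 4.3.3 (lmFit and eBayes, 1 coefficient per site, 16 residual degrees of freedom, two-sided), with Benjamini-Hochberg adjustment within each of 6 comparisons at 0.05. Comparisons with blood share its 5 arrays. The procedure was tested on simulated data. The members and lists (257 genes, 254 with a probe) were chosen with earlier results of these data known. All members were named. From each list up to 4 called genes per comparison were named by size, or, with no call, genes among the 2 of largest size. For each tested member the 3 tested genes with the highest r were taken, of which all or the first are given.

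Alternatives were a block for slide, which equals the replicate number, quantile normalization, normexp (offset 50, on the median and not the mean spot signal), 2 other scalings, 2 other filters, the mean of a gene's probes, the deposited table, leaving out liver 5 and small intestine 5, and leaving out each array.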

Additional observations from a re-analysis of the deposited data

Results flagged for a closer look

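Havcr2 on small intestine 4 stood apart from the other small intestine arrays. Its level there was -1.82, not well above background, while the other 4 lay between 0.36 and 1.25, and the gap made up 0.712 of the range, above Dixon's critical value of 0.71 for 5 arrays. In all, 28 groups of 5 arrays were examined and 1 was set apart in this way, where chance gives about 1 in 20.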

How the results depend on the processing

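No paired analysis was taken as the main one, because same-numbered arrays deviated together in only 18 of 30 pairs (r over 0.1, range -0.37 to 0.56). The replicate number, which is also the slide, was the best match among the 5 arrays of the other site in 10 of 30 cases. The lowest r was that of liver 5 with small intestine 5, whose Paneth cell markers go against their labels. With the replicate block the members called for small intestine against blood were 2 (Cd274 and Lag3) in place of 1, and the genes called were 1163 in place of 875. The number of members called there was 0 with quantile normalization, normexp, either other scaling, no filter on dim probes and the deposited table, 3 without liver 5 and small intestine 5 (Cd274, Lag3 and Btla), and 0 to 3 with 1 array left out. Members called were 2 without those arrays, and 0 to 1 with 1 array left out, both over any site (Cd274 and Btla without them) and for small intestine against liver (Lag3 and Btla), and 0 to 1 with 1 array left out for lung against blood. Genes called for small intestine against blood were 495 with quantile normalization and with the deposited table, 239 when scaled on probes detected on all arrays, 19 when scaled on CD8 identity genes, 255 with no filter, 2118 without liver 5 and small intestine 5, and 0 (without small intestine 2) to 2037 (without small intestine 5) with 1 array left out. Over all settings the genes called ranged from 0 to 846 for lung against blood (66 reported), 0 to 65 for lung against liver (23), 0 to 1311 for small intestine against liver (0), 0 to 212 for small intestine against lung (12), 0 to 3 for liver against blood (0) and 2 to 1512 over any site (61). Cd274 was called for small intestine against blood in 3 of 9 settings beside those that left out 1 array, and had no value where only genes detected on all arrays were tested. Lag3 was called there in 3 of 10 such settings, among them the test of only genes detected on all arrays. Of the 42 member differences, 28 kept their sign in every setting and 14 changed it at least once, none of those after passing the threshold. Low signal over background limits Cd274, Havcr2, Tigit, Btla, Cd160 and Cd244a. The causes of these changes were not tested.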
